A study of Danio rerio with 24 samples.

Results

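Zebrafish treated with the solvent DMSO were compared at 2 times of development: larvae at 96 hours post-fertilisation (hpf) and embryos at 10 hpf. The comparison used 7 of the 24 libraries of the series, 4 of larvae and 3 of embryos. They were chosen by their labels as the solvent controls of a study that asks what tetrahydrocannabinol (THC) and cannabidiol (CBD) do to development. A further DMSO embryo library, replicate 4, held 125926 counts and was left out as too shallow. All animals, controls included, were of the line Tg(fli1:egfp), in which a green fluorescent protein is made under regulatory sequence of the endothelial gene fli1. The labels give the tissue as larvae or embryos and not as a dissected organ, so each value is a mean over all tissues of the animals. The sources used here do not give how many animals made up a library, the DMSO concentration or when exposure began.

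At 10 hpf the zebrafish embryo closes gastrulation: the germ layers are in place, the enveloping layer covers the yolk, and cells divide fast. Maternal factors such as Nanog and Pou5f3 start zygotic transcription, after which T-box factors and Bmp antagonists pattern mesoderm and the body axis. By 96 hpf the larva has hatched and swims, and its skeletal muscle, retina, blood vessels, liver and pancreas work. In whole animals the RNA of a tissue that forms between these times can rise with the number of its cells or with the RNA in each cell, and these cannot be told apart here.

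Library totals were 19388214 to 25045751 counts in the larvae and 18048894 to 19305236 counts in the embryos. Levels are given as counts-per-million values (CPM), scaled by library, in the order of replicates 1 to 4 of the larvae and 1 to 3 of the embryos. They are relative to the other RNA of a library and are not amounts per animal. A count of 3, taken as the floor of detection, stood for 0.120 to 0.155 CPM in a larval library and for 0.155 to 0.166 CPM in an embryo library, and covers counting error only. The larvae had 25419 to 26222 genes with a count and the embryos 23448 to 24707. The 10 most abundant genes took 10.4% to 11.6% of the counts in the larvae and 7.13% to 7.88% in the embryos. Neither range overlapped, and in each case the two-sided exact permutation test gave p = 0.0571, the smallest that 4 against 3 libraries allow. Mitochondrially encoded genes took 1.44% to 3.84% of counts in the larvae and 1.35% to 1.51% in the embryos (exact permutation test, p = 0.114), with larval replicate 4 lowest among the larvae.

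The stage labels were checked on genes of known time. *tbxta*, the zebrafish Brachyury gene of the notochord and tail, had 5.97, 6.83, 11.1 and 9.57 CPM in the larvae, against 165, 217 and 250.2 CPM in the embryos. *msgn1*, a factor of presomitic mesoderm, had 0.363, 0.15, 0.232 and 0.252 CPM in the larvae, against 148, 149 and 166 CPM in the embryos. Larval genes went the other way: *fabp10a*, the fatty acid binding protein of liver, had 82.3, 153, 192 and 153 CPM in the larvae, against 0.149, 0.0572 and 0.119 CPM in the embryos, and *prss1*, a trypsin of the exocrine pancreas, had 118, 128, 485 and 239 CPM in the larvae, against 1.14, 0.286 and 0.716 CPM in the embryos. No library of either stage lay in the range of the other for these 4 genes. The same held for 44.7% of all genes tested in the higher direction and 35.4% in the lower. These genes tell larvae from embryos and were not a test of age among the embryo libraries. *GSC* (goosecoid) and *OTX2* were lower in the larvae by less, with log2 fold changes of -1.04 and -0.46, and *ndr1*, a nodal ligand, was too low to test in either stage.

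The 3 embryo libraries were not alike. The first principal component, which held 92.7% of the variance and separated the stages, placed embryo replicate 1 at -205 and replicates 2 and 3 at -282 and -285, while the larvae lay between 185 and 204. In 3122 of the 21546 genes tested (14.5%) embryo replicate 1 differed more than 2-fold from the mean of replicates 2 and 3, and in 81.2% of these 3122 it lay on the side of the larvae. Replicates 2 and 3 differed from each other by that much in 1.04% of genes. The biological coefficient of variation, the spread between replicates beyond counting error, was 0.235 among the larvae, 0.441 among the 3 embryo libraries and 0.109 between embryo replicates 2 and 3. The counts below that moved by more than 1.5 times without embryo replicate 1 are given both ways. So are the named genes that lost their call without that library. Of the 2 named genes that gained a call without it, *MYOD1* is given both ways and the other is not. Several other lists moved less, and so did all genes tested. Of these, 10652 of 22188 were higher without that library, against 9611 of 21546 with it. Their median log2 fold change was 0.52, against 0.36. Without that library 33 of 38 liver genes were higher, against 25 of 37 with it, and 26 of 28 endothelial genes, against 23. Kidney and ionocyte genes had 27 of 32 higher without it, against 21, glia and myelin genes 15 of 18, against 12, and cytosolic ribosomal proteins 74 of 81, against 65. Some medians moved more: the median log2 fold change of glia and myelin genes was 5.76 without that library, against 2.44 with it, that of endothelial genes 5.15, against 3.28, and that of collagen chains 7.04, against 5.32.

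Genes of segmentation and organ formation showed the gap. *MYOG* (myogenin, a factor of muscle differentiation) had 18.9, 20.1, 17.1 and 17.8 CPM in the larvae, against 3.52, 0 and 0 CPM in the embryos. *FLI1*, the endothelial factor whose sequence drives the reporter, had 194, 169.9, 113 and 171 CPM in the larvae, against 13.3, 0.0572 and 0 CPM in the embryos. In both, embryo replicate 1 lay above the other embryos and below every larva. *MYOD1*, which marks muscle precursors, had 11.3, 14.8, 9.75 and 9.7 CPM in the larvae, against 17.8, 1.2 and 1.55 CPM in the embryos: embryo replicate 1 lay above all 4 larvae, and the gene did not pass the test (log2 fold change 0.72 ± 0.81 (SE), adjusted p = 0.431), whereas without that library its log2 fold change was 3.06 (adjusted p = 4.85e-06 in edgeR's quasi-likelihood test). The age of the animals in embryo replicate 1 was not tested beyond these values.

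**Figure D1:**
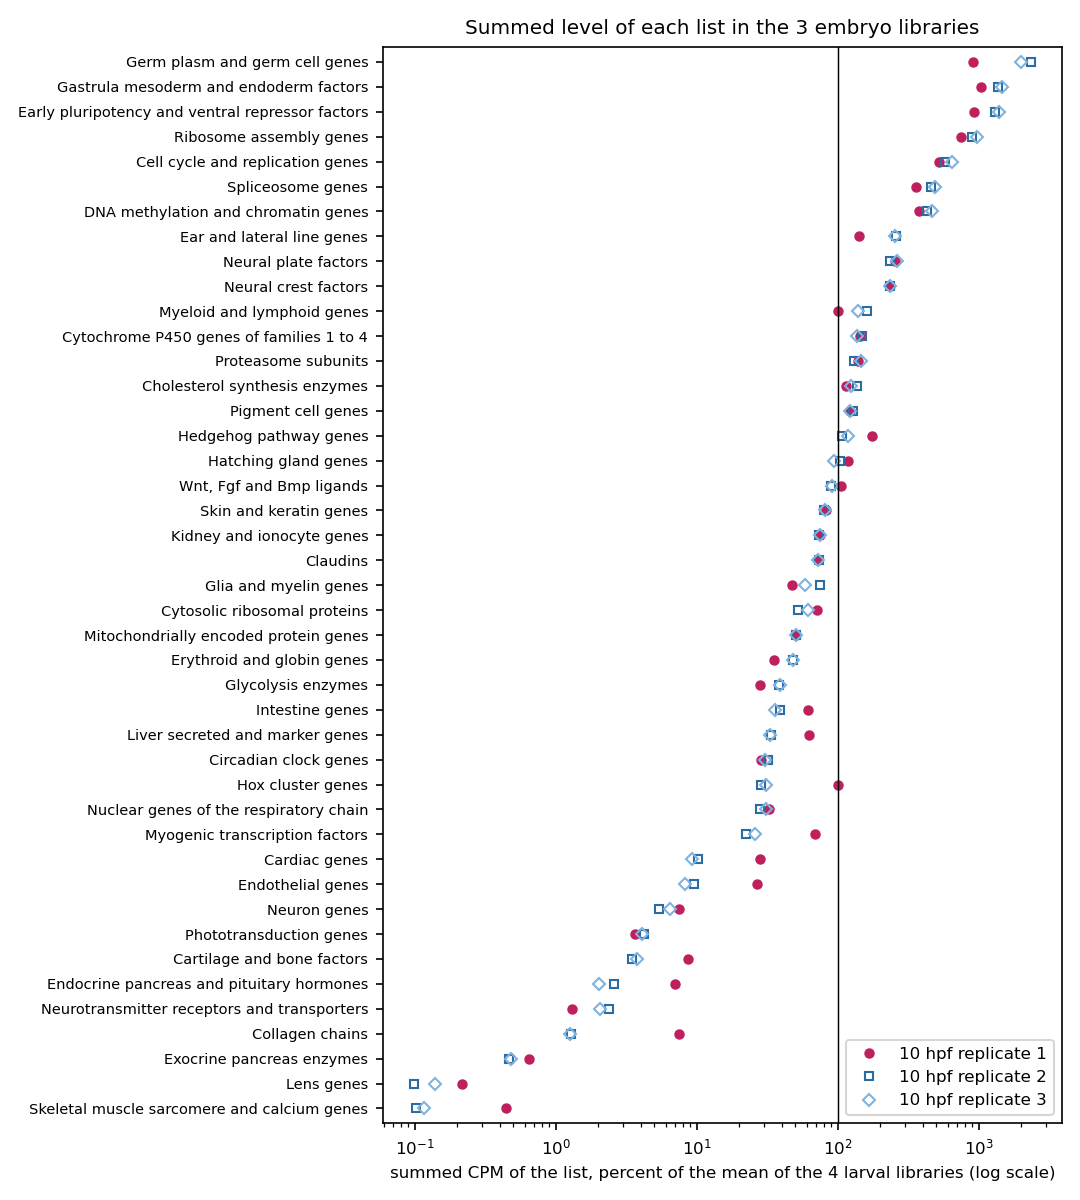
Summed CPM of each of 43 gene lists in the 3 DMSO embryo libraries (10 hpf), as a percent of the mean of the 4 DMSO larval libraries (96 hpf), on a log axis; the vertical line marks 100%, where embryo and larval levels are equal. Replicates 2 and 3 lie close together in every list, while replicate 1 lies to their right for skeletal muscle, collagens, Hox genes, endothelium and heart, and to their left for germ plasm and pluripotency genes.

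Nearly 4 in 5 genes differed between the stages. Of 21546 genes tested, 9611 (44.6%) were higher and 7558 (35.1%) lower in the larvae at an adjusted p under 0.05 (edgeR's quasi-likelihood test, Benjamini-Hochberg adjusted over all genes), 79.7% in all. With a fold above 2 as the null, 7630 (35.4%) were higher and 5023 (23.3%) lower. The libraries of the stages did not overlap for 9621 genes higher (44.7%) and 7617 lower (35.4%). The rises reached further than the falls: 2886 called genes were higher and 409 lower by more than 5 on the log2 scale. The median log2 fold change of all genes tested was 0.36, and every count of list members below is to be read against these shares. Counts given without embryo replicate 1 are to be read against that fit, where 10652 of 22188 genes were higher and 7820 lower. The submitters call the samples biological replicates without naming clutches or tanks, so the p-values speak of the spread between samples, part of which may be technical.

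Among called genes with a gene name and at least 30 counts over the embryos, the 10 largest rises were of muscle genes. Genes outside the limits of this ranking had larger log2 fold changes. They reached 13.03 among lens genes and 12.72 among neurotransmitter receptors and transporters. *pvalb1*, a parvalbumin that buffers calcium in fast muscle, had 11294, 10462, 8022 and 10336 CPM in the larvae, against 6.85, 0.458 and 2.03 CPM in the embryos, a log2 fold change of 11.63 ± 0.98 (SE). *atp2a1*, the calcium pump of the sarcoplasmic reticulum, had 8685, 9449, 7909.8 and 11206 CPM in the larvae, against 8.04, 0.801 and 1.91 CPM in the embryos. All larval libraries were far above all embryo libraries for both genes, and no embryo library reached 10 CPM. The other members of the 10 largest rises were the myosin heavy chain genes *myhz1.1*, *myhz1.2* and *myhz1.3*, *pvalb2*, the myosin light chains *MYL11* (ENSDARG00000053254) and *MYL1*, *TNNI2* (troponin I of fast muscle) and *ckmb* (a muscle creatine kinase), with log2 fold changes of 11.09 to 11.73. The largest of these, *myhz1.3*, had 2099, 2566, 1265 and 1745 CPM in the larvae, against 1.09, 0.114 and 0.418 CPM in the embryos.

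The largest falls were ranked among genes with at least 30 counts over the lower stage. That limit was also set for the rises, and below it fold changes are less certain. It left out *tbx16*, with 29 counts over the larvae and a log2 fold change of -9.9. Other genes outside the limits of this ranking fell further. Their log2 fold changes reached -13.36 among gastrula mesoderm and endoderm factors and -10.17 among early pluripotency factors and ventral repressors. *pou5f3*, the zebrafish counterpart of the pluripotency factor OCT4, had 0.323, 0.748, 0.464 and 0.336 CPM in the larvae, against 252, 503 and 519 CPM in the embryos, a log2 fold change of -9.83 ± 0.41 (SE). *cdx4*, a homeobox gene of the posterior body, had 0.646, 0.748, 0.743 and 0.462 CPM in the larvae, against 435, 469 and 544 CPM in the embryos. *ctsll*, a gene named for a cathepsin L-like protease, had 2.62, 1.25, 1.63 and 3.15 CPM in the larvae, against 911, 1916 and 1536 CPM in the embryos. Each was at least 10 times above the highest larva in every embryo library. The other 7 of the 10 largest were *vox* (a ventral homeobox repressor), *tbx16l* (a T-box factor of mesoderm), *urahb*, *ctss2.1*, *krt99*, *il23r* and *CCNA1* (cyclin A1), with log2 fold changes of -9.53 to -6.99.

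Some genes were read at 1 stage alone. A total of 1382 genes had 0 counts in all 3 embryo libraries and a larval mean above 0.0552 CPM. Of these, 527 were abundant enough to test. Another 678 had 0 counts in all 4 larval libraries and an embryo mean above 0.0333 CPM, and 37 of them could be tested. Each limit stands for 3 counts over the group with 0 counts, so genes at or below it in the other stage were not counted. Among named genes with 0 counts in the embryos, *DIRAS1*, a small GTPase, had 69.6, 54.6, 66.9 and 46.2 CPM in the larvae, at least 1075-fold above a floor of 3 counts over the embryo group. *TAGLN* (transgelin, of smooth muscle) reached 39.3, 46.7, 37.1 and 61.6 CPM and *HPD*, an enzyme of tyrosine breakdown, 40.2, 41.2, 58.1 and 45 CPM in the larvae, each at least 836-fold above that floor. *gvin1l2* and *GUK1* (guanylate kinase) completed the 5 most abundant. Among genes with 0 counts in the larvae, *nnr* had 29.7, 72 and 106 CPM in the embryos, *admp*, a Bmp ligand of the organizer, 31.1, 78.2 and 82.3 CPM, and *mxtx1*, a homeobox gene of the yolk syncytial layer, 20.7, 54.9 and 42.6 CPM. These were at least 2079.7-fold, 1919.9-fold and 1185-fold lower in the larvae. *zp3f.1*, an egg coat gene, and *znfl1b*, a zinc finger gene, followed at 3.23 to 9.67 CPM and 5.32 to 11.5 CPM in the embryos.

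**Figure D2:**
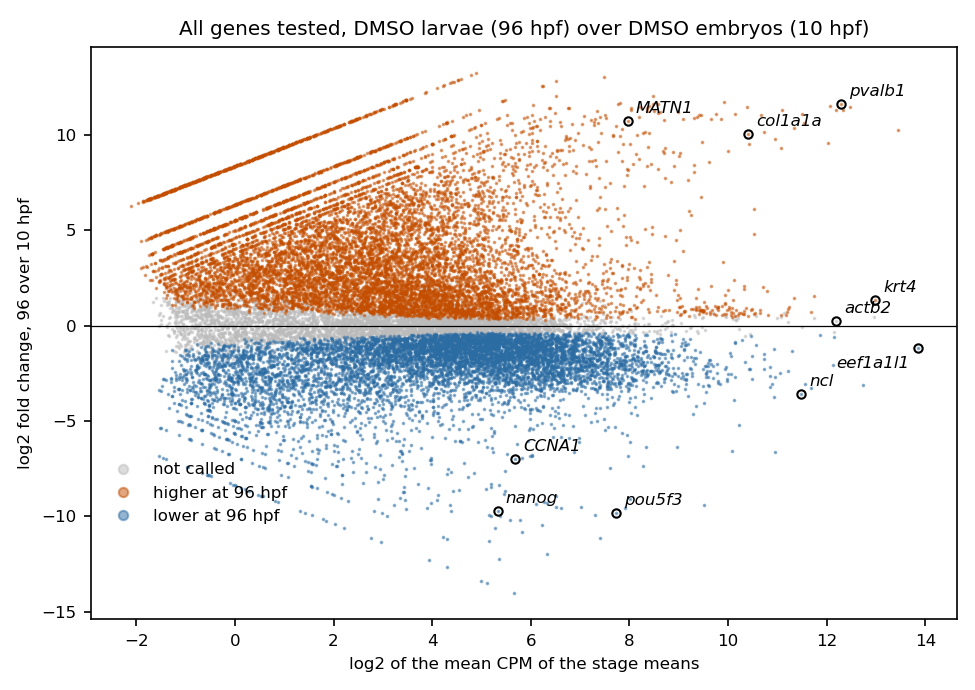
Log2 fold change of every gene tested, DMSO larvae (96 hpf) over DMSO embryos (10 hpf), against the log2 of its mean CPM; orange points were called higher and blue points lower in the larvae at an adjusted p under 0.05, and grey points were not called. The straight streaks at the left are genes with 0 or few counts at 1 stage, whose fitted fold changes depend on their depth; the circled genes are given in the text.

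The 43 lists that follow hold 1485 identifiers, sorted by what their genes do; the plot of calls per list shows them in order. Skeletal muscle genes stood at one end, with 50 of 50 tested members higher in the larvae, and ribosome assembly genes at the other, with 42 of 42 lower, beside 44.6% and 35.1% of all genes tested.

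**Figure D3:**
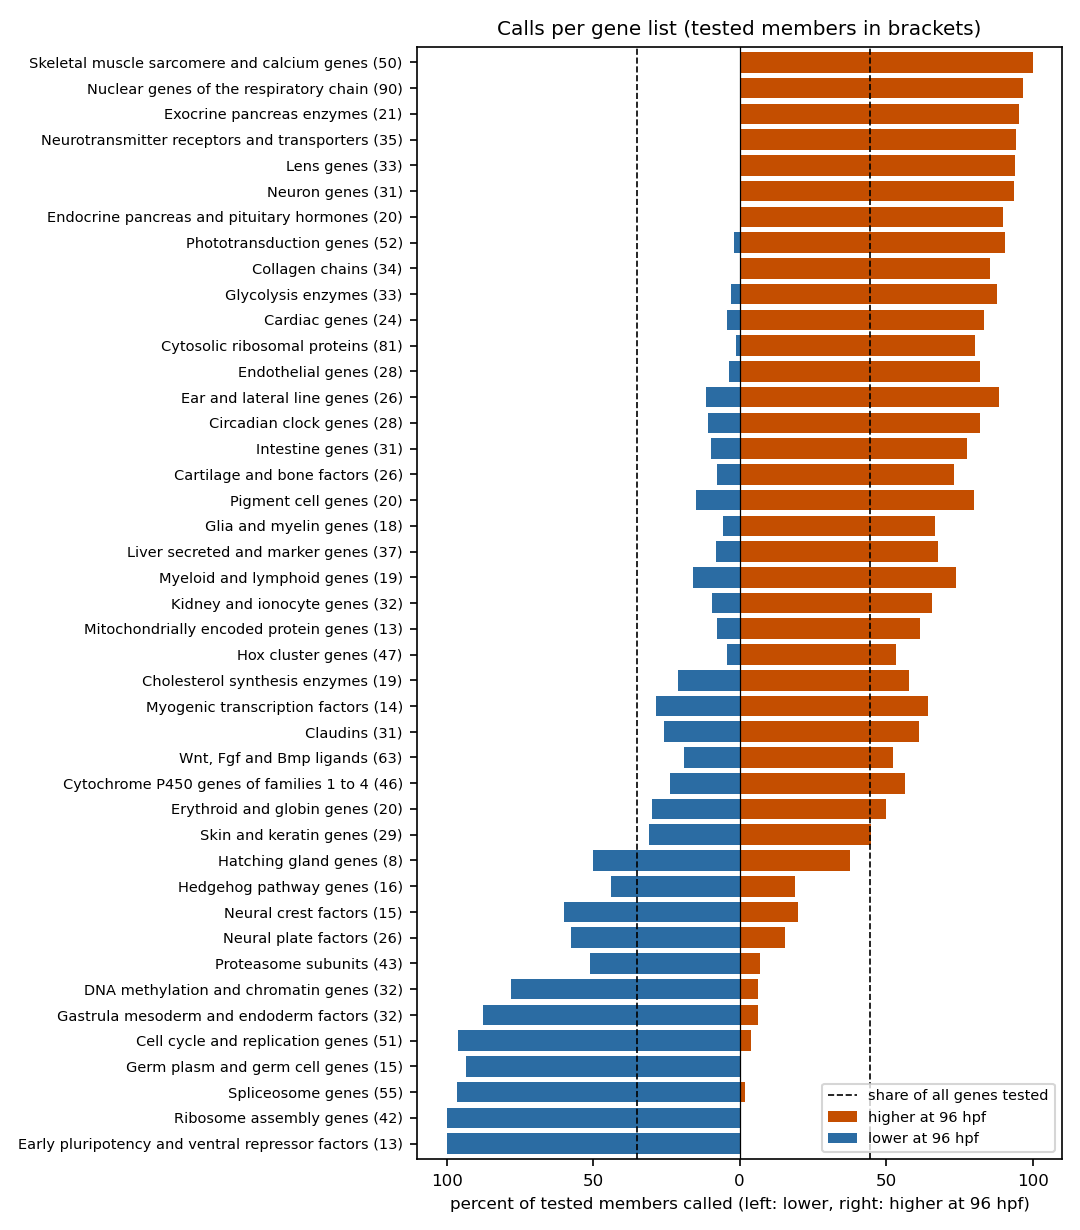
Percent of the tested members of each gene list called higher (orange, to the right) or lower (blue, to the left) in DMSO larvae at 96 hpf than in DMSO embryos at 10 hpf, with the number tested in brackets; dashed lines mark 44.6% and 35.1%, the shares of all genes tested. Skeletal muscle genes (50 of 50 higher) and nuclear genes of the respiratory chain (87 of 90) lie at the top, with glycolysis, clock and ribosomal protein genes among the tissue lists below them, and pluripotency, ribosome assembly, cell cycle and spliceosome genes lie at the bottom.

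Early pluripotency factors and ventral repressors were lower in the larvae in 13 of 13 tested members, with a median log2 fold change of -6.0. *nanog*, which opens zygotic transcription, had 0.161, 0.0997, 0 and 0.084 CPM in the larvae, against 10.1, 131 and 99.6 CPM in the embryos. Embryo replicate 1 held less of it than the other embryos, and still far more than any larva. *vox* had 0.283, 0.399, 0.371 and 0.336 CPM in the larvae, against 172, 295 and 309.9 CPM in the embryos. *sox19a*, a SoxB1 factor of the early ectoderm, kept a larval level and had 50.7, 48.6, 40.3 and 33.1 CPM in the larvae, against 416, 381 and 423 CPM in the embryos.

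Germ plasm and germ cell genes were lower in 14 of 15 tested members (median log2 fold change -3.65). *h1m*, a linker histone that the egg supplies, had 0.161, 0.0997, 0.279 and 0.294 CPM in the larvae, against 54, 125 and 86.4 CPM in the embryos. *DDX4* (vasa, an RNA helicase of germ cells) had 1.94, 2.64, 2.51 and 3.91 CPM in the larvae, against 23, 43.3 and 37.5 CPM in the embryos, and *tdrd7a*, a tudor protein of germ granules, had 0.565, 0.399, 0.279 and 1.13 CPM in the larvae, against 11.7, 31.8 and 30.7 CPM in the embryos. The groups did not overlap in any of the 14, as in 35.4% of all genes tested for this direction. *PIWIL2*, named after its values were seen, was the member that did not pass (log2 fold change -0.33).

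Gastrula mesoderm and endoderm factors were lower in 28 of 32 tested members and higher in 2 (median log2 fold change -5.63). *tbx16*, a T-box factor that lets mesoderm cells migrate, had 0.242, 0.499, 0.186 and 0.378 CPM in the larvae, against 209.7, 339.9 and 393 CPM in the embryos. *chrd* (chordin, a secreted Bmp antagonist of the dorsal side) had 7.06, 6.93, 7.24 and 11.2 CPM in the larvae, against 309.9, 356 and 401 CPM in the embryos. *noto*, a homeobox factor of the notochord, had 0.363, 0.15, 0.0929 and 0.21 CPM in the larvae, against 30.7, 44.3 and 44 CPM in the embryos. All 3 were separated without overlap, with log2 fold changes of -9.9, -5.45 and -7.53. The 2 members that went up are known here by symbol alone, *PCDH8* (ENSDARG00000102185, named for a protocadherin) and *EOMES* (ENSDARG00000104243). The PCDH8 identifier was at 14.9 to 23.1 CPM in the larvae against 0 to 0.397 CPM in the embryos. The EOMES identifier was at 0.499 to 0.929 CPM in the larvae against 0 to 0.0572 CPM in the embryos. Without larval replicate 1, or without larval replicate 3, the EOMES identifier was too low to test and the PCDH8 identifier alone was called higher.

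Neural plate factors divided: of 26 tested, 15 were lower, 4 higher and 7 passed in neither direction (median log2 fold change -0.74). *ZIC2*, a zinc finger factor of the dorsal neural plate, had 11.1, 10.8, 10.03 and 9.32 CPM in the larvae, against 335, 418 and 468 CPM in the embryos, and *irx7*, an Iroquois factor, had 6.05, 7.13, 5.99 and 5.8 CPM in the larvae, against 121, 172 and 192 CPM in the embryos. *SOX3*, which keeps neural progenitors, was at 29.8 to 37.3 CPM in the larvae against 156 to 165 CPM in the embryos. Among those that rose, *ZIC1* had 75.4, 65.6, 71.5 and 62.6 CPM in the larvae, against 34.5, 27.1 and 28.1 CPM in the embryos. *PAX6*, the eye and forebrain factor (ENSDARG00000103379), had 114, 101, 87.8 and 71.2 CPM in the larvae, against 31.3, 0.286 and 0.358 CPM in the embryos, a log2 fold change of 3.12 that passed the test narrowly (adjusted p = 0.0479 by edgeR's quasi-likelihood test) and not when any 1 library other than embryo replicate 1 was left out. Without embryo replicate 1 its log2 fold change was 8.17 (adjusted p = 1.66e-08, edgeR's quasi-likelihood test). Without embryo replicate 1, 11 of the 26 were higher and the same number, 15, lower.

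Neural crest factors showed a like division, with 9 of 15 lower and 3 higher (5 higher without embryo replicate 1). *snai1a*, a repressor of cadherins in migrating cells, had 12.1, 16.4, 12.3 and 13.9 CPM in the larvae, against 168, 341 and 247 CPM in the embryos. *TFAP2C* and *TFAP2A*, AP-2 factors of the neural plate border, were lower with log2 fold changes of -2.13 and -0.67. *SOX9* (ENSDARG00000003293), which directs cartilage, was higher at 17.3 to 29 CPM in the larvae against 5.19 to 12.2 CPM in the embryos, as were *twist1b* at 9.89 to 17.4 CPM in the larvae against 0 to 3.32 CPM in the embryos and *snai2* at 24 to 30.2 CPM in the larvae against 4.3 to 23.3 CPM in the embryos. The snai2 groups were separated by little, since embryo replicate 1 held 23.3 CPM, and its call was lost when any 1 of the other 6 libraries was left out.

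Hatching gland genes, whose enzymes dissolve the egg envelope between the 2 times sampled, gave 3 higher and 4 lower of 8 tested. *he1.1*, a hatching enzyme, had 0.283, 0.947, 2.09 and 0.924 CPM in the larvae, against 64.9, 0.687 and 1.55 CPM in the embryos, and *ctslb*, a cathepsin of the gland, had 0.0807, 0, 0 and 0 CPM in the larvae, against 34.6, 3.83 and 6.51 CPM in the embryos. Embryo replicate 1 stood above both other embryos in each. Without it he1.1 did not pass (log2 fold change -0.072), and the list gave 2 members lower. *AGR2*, *CD63* and *tmprss13a* were higher in the larvae; AGR2, also a gene of mucous cells, had 85.5, 105, 80.4 and 101 CPM in the larvae, against 1.99, 0.286 and 0.239 CPM in the embryos.

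Genes of cell division fell. Of 51 tested cell cycle and replication genes 49 were lower in the larvae, with a median log2 fold change of -2.55, and 46 were lower by more than 2-fold. *mki67*, the proliferation marker Ki-67, had 162, 208, 119 and 139 CPM in the larvae, against 1093, 1448 and 1678 CPM in the embryos, and *PCNA*, the clamp of DNA polymerase, had 359, 366, 223 and 279.6 CPM in the larvae, against 931, 928 and 1129 CPM in the embryos. *CCND1* (cyclin D1) was at 70.6 to 109 CPM in the larvae against 475 to 647 CPM in the embryos. The 2 members that rose were identifiers of *CCND2* (cyclin D2), with log2 fold changes of 1.85 and 1.36; neither passed without embryo replicate 2 or 3, or without larval replicate 3 or 4, and 1 of them passed without larval replicate 2. Among the mitotic cyclins *CCNB1*, *CCNB2* and *ccnb3* fell by 3.17, 4.36 and 1.91 on the log2 scale. *CCNA2* fell to 52.6, 57.9, 37.1 and 51.4 CPM in the larvae, against 262, 454 and 461 CPM in the embryos, and *CCNA1*, the cyclin A of the germ line and early embryo, to 0.848, 0.947, 0.418 and 0.924 CPM in the larvae, against 6.2, 163 and 134 CPM in the embryos.

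The machinery of ribosome assembly fell as a block: 42 of 42 tested members were lower, all by more than 2-fold, with log2 fold changes of -3.87 to -1.43 and a median of -2.81. *ncl* (nucleolin, of the nucleolus) had 427, 492, 366 and 478 CPM in the larvae, against 4264, 5577 and 5856 CPM in the embryos. *npm1a* (nucleophosmin) had 179, 182, 106 and 96.9 CPM in the larvae, against 1637, 2187 and 2387 CPM in the embryos, and *NOP56*, a protein of box C/D particles that modify ribosomal RNA, had 158, 170.2, 109.9 and 131 CPM in the larvae, against 1108, 1277 and 1485 CPM in the embryos. The summed level of the 42 was 2219.9, 2474, 1742 and 2080.4 CPM in the larvae, against 15815, 18895 and 20536 CPM in the embryos.

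The ribosome's own proteins moved the other way and by little. Of 81 cytosolic ribosomal protein genes 65 were higher in the larvae, 1 lower and 15 passed in neither direction, and 3 were higher by more than 2-fold (median log2 fold change 0.76). *RPLP0* had 2786, 3419, 2309 and 3087 CPM in the larvae, against 2210.1, 1465 and 1629.8 CPM in the embryos. *RPS2* had 3039, 3482, 2328 and 3493 CPM in the larvae, against 2084, 1369 and 1591 CPM in the embryos. In both, embryo replicate 1 was the highest embryo and larval replicate 3 the lowest larva, and their distance was small beside the spread within a stage. RPLP0 was not called without embryo replicate 2 or 3. *RPL7L1*, an RPL7-like gene, was the member that fell, at 36.7 to 60.2 CPM in the larvae against 199 to 264 CPM in the embryos. Without embryo replicate 2 the number higher was 43, and in a fit that also held the THC and CBD libraries it was 13 at a nearly equal median of 0.74.

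Splicing genes fell in 53 of 55 tested members (median log2 fold change -2.04). *PRPF8*, a core protein of the spliceosome, had 212, 237, 171 and 216 CPM in the larvae, against 1214, 1336 and 1445 CPM in the embryos. *SNRNP70*, a U1 protein of the spliceosome, had 157, 149, 127 and 136 CPM in the larvae, against 708, 929.6 and 993 CPM in the embryos. *LSM4* alone was higher, with a log2 fold change of 0.43, and it did not pass without embryo replicate 2 or 3 or without larval replicate 1 or 2.

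DNA methylation and chromatin genes were lower in 25 of 32 tested members and higher in 2 (4 without embryo replicate 1). *HDAC1*, a histone deacetylase, had 359.7, 391, 242 and 265 CPM in the larvae, against 1013, 1255 and 1404 CPM in the embryos. *CHD7*, a chromatin remodeller, had 162, 173, 142 and 165 CPM in the larvae, against 1214, 1449 and 1474 CPM in the embryos. The 2 that rose each share a symbol with one that fell. Of the 2 *SMARCA4* identifiers, a remodelling ATPase, ENSDARG00000104339 was at 26.5 to 45.5 CPM in the larvae against 2.17 to 4.06 CPM in the embryos and ENSDARG00000077226 at 235 to 296 CPM in the larvae against 862 to 1049 CPM in the embryos. The *DNMT3A* pair is given with its family below.

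Proteasome subunits moved little. Of 43 tested, 22 were lower, 3 higher and 18 passed in neither direction, with a median log2 fold change of -0.54, and none passed the test against a 2-fold change. *PSMB7* was at 113 to 199 CPM in the larvae against 278 to 335 CPM in the embryos, and *PSMD5* at 20.3 to 28 CPM in the larvae against 12.5 to 17.2 CPM in the embryos. Leaving out embryo replicate 2 or 3, or larval replicate 1 or 2, left 1 member higher. In the fit that also held the THC and CBD libraries, 16 were lower and 2 higher in DMSO. With DESeq2's size factors in that fit 3 were lower and 3 higher.

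Genes of energy metabolism were mostly higher. Of 90 tested nuclear genes of the respiratory chain 87 were higher in the larvae (median log2 fold change 1.91), 74 of them by more than 2-fold. *ATP5F1B*, the catalytic subunit of ATP synthase, had 2023, 2096, 1819 and 2244 CPM in the larvae, against 573, 507 and 502 CPM in the embryos, and *ATP5F1A* had 1506, 1624, 1471 and 1796 CPM in the larvae, against 470.0, 418 and 417 CPM in the embryos. The summed level of the list was 18986, 20874, 15940.1 and 18787 CPM in the larvae, against 6094, 5211 and 5777 CPM in the embryos, close together within each stage. Of the 13 protein genes of the mitochondrial genome itself, 8 were higher and 1 lower, or 12 and 1 without larval replicate 4. *MT-CO3*, a subunit of cytochrome oxidase, had 6452, 5409, 5400.1 and 3184 CPM in the larvae, against 1776, 1652 and 1675 CPM in the embryos, and *MT-ATP6* had 3955, 2696, 2873 and 1219 CPM in the larvae, against 854, 604 and 541 CPM in the embryos. Larval replicate 4 was the lowest larva in both. *MT-ND6*, which lies on the opposite strand, was the member that fell, at 1.47 to 4.08 CPM in the larvae against 5.04 to 6.27 CPM in the embryos.

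Glycolysis enzymes were higher in 29 of 33 tested members, with a median log2 fold change of 4.37. *GAPDH* had 1678, 1782, 1755 and 1727 CPM in the larvae, against 146, 179 and 194 CPM in the embryos. *GAPDHS*, a gene named for the sperm enzyme of mammals, had 1256, 1299, 1239 and 1266 CPM in the larvae, against 7.0, 1.89 and 2.15 CPM in the embryos, and *ENO3*, the enolase of muscle, was at 789 to 988 CPM in the larvae against 68.5 to 92.6 CPM in the embryos.

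Cholesterol synthesis divided by enzyme, with 11 of 19 higher and 4 lower (median log2 fold change 0.94). The number higher was 9 without embryo replicate 2 and 8 without embryo replicate 3, with 4 lower in each. Among the 4 that fell were *IDI1* and *FDPS*, which make and join isoprene units, by 1.85 and 1.03 on the log2 scale.

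Of the 43 lists, skeletal muscle genes had the largest difference in summed CPM. Its 50 sarcomere and calcium genes summed to 106134, 114620.4, 83344 and 103663 CPM in the larvae, against 451, 105 and 118 CPM in the embryos, so that about 1 count in 10 of a larval library came from them. The most abundant gene of each larval library, *actc1b*, was not in this list. All 50 were higher, 49 by more than 2-fold, with a median log2 fold change of 9.38, or 8.85 with genes at 0 counts set at the floor. Without embryo replicate 3, or without any 1 larval library, 49 of the 50 were called higher. *myhz1.1*, a myosin heavy chain of fast fibres, had 10603, 11049.8, 8868 and 10574 CPM in the larvae, against 9.03, 0.572 and 2.15 CPM in the embryos. Larval replicate 3 was lowest of the larvae for it, for pvalb1 and for *pvalb2*, which had 11499, 13068, 9236 and 11734 CPM in the larvae, against 9.28, 0.401 and 2.15 CPM in the embryos.

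The factors that drive muscle formation did not move as one. Of 14 tested, 9 were higher and 4 lower. *MEF2C*, which works in differentiated muscle, had 85.9, 62.2, 65 and 56 CPM in the larvae, against 5.11, 1.72 and 2.21 CPM in the embryos for ENSDARG00000029764, and *MEF2D* was at 64.8 to 86.9 CPM in the larvae against 15.4 to 40.05 CPM in the embryos. *MYF5*, which sets the early muscle lineage, had 3.87, 6.08, 3.16 and 4.24 CPM in the larvae, against 59.205, 17.2 and 20.7 CPM in the embryos. *PAX3* (ENSDARG00000010192), of muscle and neural crest precursors, was at 1.94 to 3.06 CPM in the larvae against 13.7 to 44.8 CPM in the embryos, and *six4b* at 10.8 to 12.4 CPM in the larvae against 17.4 to 34.7 CPM in the embryos. Embryo replicate 1 was the highest of all 7 libraries for MYF5, PAX3 and six4b.

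Cardiac genes were higher in 20 of 24 tested members and lower in 1 (median log2 fold change 4.09). *MYL7*, a myosin light chain of heart muscle, had 21.2, 28.5, 23.2 and 16 CPM in the larvae and 0 counts in every embryo library, at least 402-fold above the floor. *MYH6*, the atrial myosin, had 99.2, 114, 87.8 and 109.9 CPM in the larvae, against 0.496, 0.286 and 0 CPM in the embryos. *gata4*, a factor of early heart and endoderm, fell, with 0.323, 0.15, 0.604 and 0.798 CPM in the larvae, against 8.24, 8.58 and 8.24 CPM in the embryos.

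Neuron genes were higher in 29 of 31 tested members and neurotransmitter receptors and transporters in 33 of 35, with median log2 fold changes of 6.83 and 6.36. *ELAVL3* (HuC, an RNA binding protein of young neurons) had 137, 138, 160.3 and 126 CPM in the larvae, against 46.1, 0.744 and 0.955 CPM in the embryos. Embryo replicate 1 lay between the larvae and the other embryos, which held under 1 CPM; the log2 fold change was 3.13 with it and 7.37 without it, and the call was lost when any 1 of the other 6 libraries was left out. *sncb* (a synuclein of synapses) had 386, 359, 276 and 301 CPM in the larvae, against 2.43, 1.14 and 0.895 CPM in the embryos. *GRIN1*, the shared subunit of NMDA receptors, was at 151 to 299 CPM in the larvae against 0.0572 to 0.397 CPM in the embryos for ENSDARG00000025728. No embryo library passed 3 CPM for sncb or GRIN1.

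Glia and myelin genes were higher in 12 of 18 and lower in 1 (2 without embryo replicate 1). *GFAP*, the filament of radial glia, had 329, 253, 202 and 201 CPM in the larvae, against 25.9, 0.114 and 0.0597 CPM in the embryos: embryo replicate 1 stood below every larva and far above the other embryos. *FABP7* (ENSDARG00000007697), the brain fatty acid binding protein, had 826, 829, 442 and 546 CPM in the larvae, against 1.64, 0.343 and 0.955 CPM in the embryos, and *mbpa*, the myelin basic protein, had 36.7, 26.8, 48 and 30.3 CPM in the larvae, against 0, 0.0572 and 0 CPM in the embryos. *GLUL* (ENSDARG00000099776), glutamine synthetase, fell, at 185 to 383 CPM in the larvae against 730.1 to 1358 CPM in the embryos.

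Genes of retina and lens were mostly higher. Of 52 phototransduction genes 47 were higher and 1 lower, and of 33 lens genes 31 were higher. *OPN1SW*, a cone opsin, had 1467, 1153, 2439.9 and 1402 CPM in the larvae, against 1.64, 0.0572 and 0.836 CPM in the embryos. *opn1lw2*, the red cone opsin, had 1171, 931, 1804 and 1375 CPM in the larvae, against 1.49, 0.0572 and 0.358 CPM in the embryos. Larval replicate 3 was highest for both. In the lens *CRYBB1*, a beta crystallin, had 1203, 1525, 1162 and 1562 CPM in the larvae, against 1.24, 0.229 and 0.358 CPM in the embryos, *crygm2d1*, a gamma crystallin, 699, 907, 552 and 679 CPM in the larvae, against 0.447, 0.0572 and 0.119 CPM in the embryos, and *CRYAA*, alpha A crystallin, 41, 40.8, 54.3 and 35.9 CPM in the larvae, against 0.0993, 0 and 0 CPM in the embryos. The fall in the list was *gnb1b*, a G protein beta subunit, at 160.0 to 212 CPM in the larvae against 247 to 314 CPM in the embryos.

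Endothelial genes were higher in 23 of 28 and lower in 1. Besides FLI1, *AQP1* (ENSDARG00000023713), a water channel of vessels and red cells, had 81.1, 93.1, 73 and 108 CPM in the larvae, against 0.596, 0.744 and 0.597 CPM in the embryos, and *plvapb*, a protein of vessel fenestrae, had 47.4, 43, 54.4 and 65.8 CPM in the larvae, against 0.893, 0.515 and 0.358 CPM in the embryos. *fli1rs*, a gene related to fli1 by name, had 6.74, 7.83, 7.2 and 8.02 CPM in the larvae, against 0.993, 0 and 0 CPM in the embryos. *KDR*, the symbol given to a Vegf receptor gene, went against the rest with 2.66, 3.24, 3.06 and 4.91 CPM in the larvae, against 41.5, 21.7 and 18.1 CPM in the embryos, without overlap and highest in embryo replicate 1. The reporter's own RNA was not analysed here.

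Erythroid genes were split much as all genes tested were: 10 of 20 were higher and 6 lower, beside 44.6% and 35.1%. The number higher ran from 7 without larval replicate 4 to 13 without embryo replicate 1, with 6 lower in each. *hbae3*, an embryonic alpha globin, had 877, 1017, 534 and 946 CPM in the larvae, against 3.03, 0.401 and 0.418 CPM in the embryos, and *hbae1.3* was at 35.1 to 55 CPM in the larvae against 0 to 0.298 CPM in the embryos. *blf* and *klf17*, zinc finger factors of the gastrula and early blood, fell, with 3.23, 2.69, 2.14 and 3.86 CPM in the larvae, against 77.4, 147 and 162 CPM in the embryos for blf and 6.18, 5.53, 6.31 and 7.77 CPM in the larvae, against 105, 103 and 103 CPM in the embryos for klf17. *cahz*, a carbonic anhydrase of red cells, was lower at 41.8 to 48.5 CPM in the larvae against 109 to 191 CPM in the embryos.

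Myeloid and lymphoid genes were higher in 14 of 19 and lower in 3. *lyz*, the lysozyme of neutrophils and macrophages, had 21.4, 27, 17.7 and 31.5 CPM in the larvae, against 0.447, 0.401 and 0.239 CPM in the embryos. *MPEG1* (ENSDARG00000043093), the perforin-like gene of macrophages, had 6.7, 4.79, 44.5 and 40.8 CPM in the larvae and 0 counts in every embryo. Larval replicates 3 and 4 lay far above replicates 1 and 2 for it, and the mean was at least 439-fold above the floor. *LCP1*, an actin bundler of leukocytes, fell, with 3.71, 3.59, 5.76 and 7.73 CPM in the larvae, against 62.6, 104 and 95.9 CPM in the embryos, as did *CEBPA* and *CEBPB* by 0.93 and 1.1 on the log2 scale; CEBPB lost its call without embryo replicate 2 or 3 or larval replicate 2.

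Genes of the digestive organs were mostly higher. Exocrine pancreas enzymes were higher in 20 of 21 tested members (median log2 fold change 8.36), liver genes in 25 of 37 with 3 lower, and intestine genes in 24 of 31 with 3 lower. *prss59.2*, a trypsin, had 167, 148, 659 and 339 CPM in the larvae, against 0.993, 0 and 0.179 CPM in the embryos, and *ctrb.1*, a chymotrypsin, had 111, 116, 508 and 217 CPM in the larvae, against 0.596, 0 and 0.179 CPM in the embryos. Larval replicate 3 was highest for both and replicates 1 and 2 lowest. In the liver *RBP4*, the retinol carrier of plasma, had 1036, 1269.8, 1030.1 and 1313 CPM in the larvae, against 14.1, 1.09 and 1.97 CPM in the embryos, and *fga*, a fibrinogen chain, had 88.9, 154, 124 and 241 CPM in the larvae, against 3.47, 0.114 and 0.0597 CPM in the embryos. *fetub*, a fetuin, fell, with 193, 364, 407 and 397 CPM in the larvae, against 1797, 1604 and 1424 CPM in the embryos.

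Lipid carriers were abundant at both stages. *apoa1a* and *apoa1b*, the 2 genes of apolipoprotein A-I, had 2013, 3503, 1747 and 3784 CPM in the larvae, against 1241, 549 and 586 CPM in the embryos for apoa1a, and 2109, 3838, 2828 and 3978 CPM in the larvae, against 2266, 1279.6 and 1254 CPM in the embryos for apoa1b. Embryo replicate 1 was above larval replicate 1 for apoa1b, whose call was lost without embryo replicate 2 or 3. *MTTP*, which loads lipid onto lipoproteins in yolk layer, liver and gut, fell, with 15.9, 17.9, 28.8 and 20.7 CPM in the larvae, against 284, 720.3 and 492 CPM in the embryos, and *dpp4*, a brush border peptidase, was at 6.5 to 18 CPM in the larvae against 39.4 to 56.7 CPM in the embryos.

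Hormone genes of pancreas and pituitary were higher in 18 of 20 tested members. *ins* (insulin) had 11.6, 22.3, 20.8 and 21.5 CPM in the larvae, against 0.0496, 0 and 0 CPM in the embryos, lowest among the larvae in replicate 1. *NEUROD1*, a factor of endocrine cells and neurons, had 207, 171, 224 and 146 CPM in the larvae, against 2.83, 0 and 0.119 CPM in the embryos.

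Genes of the skeleton and its matrix were mostly higher. Of 34 collagen chains 29 were higher and none lower (median log2 fold change 5.32); all 34 were higher without embryo replicate 1. *col1a1a*, of bone and skin, had 2564, 2311, 2729 and 3153 CPM in the larvae, against 5.31, 0.744 and 1.43 CPM in the embryos. *COL2A1* (ENSDARG00000069093), the collagen of cartilage and notochord, had 2629.5, 2738, 2782 and 3542 CPM in the larvae, against 124, 1.49 and 1.55 CPM in the embryos, with embryo replicate 1 far above the other embryos and larval replicate 4 highest. Cartilage and bone factors were higher in 19 of 26: *MATN1* (matrilin, of cartilage) had 424, 455, 449 and 667 CPM in the larvae, against 0.645, 0.114 and 0.0597 CPM in the embryos, and *epyc* (epiphycan) was at 203 to 233 CPM in the larvae against 1.34 to 4.52 CPM in the embryos. The 2 that fell were *mgp* at 0.126 to 0.242 CPM in the larvae against 0.629 to 1.29 CPM in the embryos and *SP7* (osterix) at 1.34 to 3.55 CPM in the larvae against 2.57 to 18.4 CPM in the embryos. SP7 rested on embryo replicate 1, without which its log2 fold change was -0.3 and did not pass; without larval replicate 2, 3 or 4 it was not called either.

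Skin genes were nearly balanced, with 13 of 29 higher and 9 lower, beside 44.6% and 35.1% of all genes. *krt1-19e*, a keratin of larval skin, had 3534, 3656, 2391 and 3332 CPM in the larvae, against 3.08, 0.286 and 1.01 CPM in the embryos, while *krt92* fell, with 182, 198, 331 and 307 CPM in the larvae, against 1396, 1241 and 1370.4 CPM in the embryos. Claudins, which seal epithelia, were higher in 19 of 31 and lower in 8. *CLDN19* had 68.2, 56.4, 68.3 and 46.7 CPM in the larvae, against 0.0993, 0.172 and 0.0597 CPM in the embryos, and *cldne* fell, with 58.1, 48.3, 62.3 and 72.1 CPM in the larvae, against 185, 275 and 276 CPM in the embryos. *cldni* had 191, 141, 134 and 122 CPM in the larvae, against 32.2, 0.343 and 0.239 CPM in the embryos, and again embryo replicate 1 stood apart from the other embryos; it was not called without larval replicate 1 or 2.

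Pigment cell genes were higher in 16 of 20 and lower in 3. *TYRP1* (ENSDARG00000056151), a melanin enzyme, had 123, 128, 104 and 104 CPM in the larvae, against 0.149, 0 and 0.119 CPM in the embryos, and *pmela*, the melanosome matrix protein, was at 78 to 115 CPM in the larvae against 2.69 to 3.34 CPM in the embryos. The 3 that fell, *GART*, *PAICS* and *SCARB1*, make purines or carry lipid in many cells: PAICS had 236, 376, 224 and 467 CPM in the larvae, against 736, 803 and 807 CPM in the embryos, and GART 16.4, 19.7, 19.7 and 36.2 CPM in the larvae, against 215, 117 and 124 CPM in the embryos.

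Ear and lateral line genes were higher in 23 of 26 and lower in 3. The 3 that fell belong to the otolith: *stm* (starmaker, which shapes the otolith crystal) had 138, 132, 153 and 159 CPM in the larvae, against 513, 1230.0 and 1242 CPM in the embryos, *OTOP1* (otopetrin, a proton channel) had 4.16, 5.73, 3.62 and 6.59 CPM in the larvae, against 51.3, 88.6 and 65.1 CPM in the embryos, and *oc90*, a matrix protein of otoliths, had 1.13, 1.6, 1.21 and 1.22 CPM in the larvae, against 41.6, 6.52 and 5.13 CPM in the embryos. The groups did not overlap in any of them; for oc90, embryo replicate 1 was highest, and for stm it was the lowest embryo.

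Kidney and ionocyte genes were higher in 21 of 32 and lower in 3. Their median log2 fold change was 3.4 and the largest was 10.42. *SLC12A1*, a salt cotransporter, went against most of the list and was among the 3 that fell. It had 2.22, 2.04, 4.18 and 6.26 CPM in the larvae, against 51.7, 46.7 and 45.7 CPM in the embryos.

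Hox genes, which pattern the body axis, were higher in 25 of 47 tested members and lower in 2 (median log2 fold change 2.62), and without embryo replicate 1 in 44 with the same number, 2, lower (median 5.24). *HOXB3* had 65.2, 70.8, 62.5 and 55.6 CPM in the larvae, against 47.7, 9.61 and 11.1 CPM in the embryos, with embryo replicate 1 between the other embryos and the larvae; it was not called without embryo replicate 2 or 3 or larval replicate 2. *HOXB5* (ENSDARG00000013057) was at 25.4 to 35.6 CPM in the larvae against 0.744 to 7.94 CPM in the embryos. The 2 that fell were the hindbrain genes *hoxb1b*, at 15.3, 16.5, 12.7 and 14.3 CPM in the larvae, against 107, 89.6 and 101 CPM in the embryos, and *hoxb1a*, at 1.94, 1.65, 2.0 and 1.72 CPM in the larvae, against 25.8, 3.15 and 3.46 CPM in the embryos. The hoxb1b fall was alike in all embryo libraries.

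Among secreted signals of the Wnt, Fgf and Bmp families, 33 of 63 tested were higher and 12 lower (50 and 10 without embryo replicate 1). *bmp7a* and *BMP2* (ENSDARG00000041430), ventral signals of the gastrula, had 1.13, 0.648, 0.975 and 0.672 CPM in the larvae, against 65.9, 111 and 96.7 CPM in the embryos for bmp7a, and 14.3, 15.1, 13.9 and 19.3 CPM in the larvae, against 47.1, 89.1 and 80.5 CPM in the embryos for BMP2. *FGF8* (ENSDARG00000003399), a signal of the embryonic margin and midbrain boundary, had 5.73, 6.58, 5.11 and 4.62 CPM in the larvae, against 71.7, 55.2 and 61.7 CPM in the embryos. The most abundant risers, *FGF12* and 2 identifiers of *FGF13*, code for intracellular Fgf homologs of neurons; FGF13 (ENSDARG00000035056) was at 35.3 to 45.7 CPM in the larvae against 1.66 to 2.92 CPM in the embryos.

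The Hedgehog pathway showed no common direction. Of 16 tested, 3 were higher and 7 lower; 7 were higher without embryo replicate 1, and 1 without embryo replicate 2 or 3 or larval replicate 4. *SMO*, the signal transducer, had 25, 20.2, 18.6 and 18.2 CPM in the larvae, against 179, 168 and 194 CPM in the embryos. *CDON*, a co-receptor, had 104, 117, 104 and 126 CPM in the larvae, against 63.8, 15.4 and 19.5 CPM in the embryos, and *PTCH1*, the receptor and target, was at 26.1 to 44.1 CPM in the larvae against 10.1 to 27.5 CPM in the embryos with overlap and was not called without embryo replicate 2 or 3 or larval replicate 4.

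Circadian clock genes were higher in 23 of 28 and lower in 3. *CRY1* (ENSDARG00000045768), a repressor of the clock, had 103, 101, 112 and 79.8 CPM in the larvae, against 4.81, 6.58 and 4.18 CPM in the embryos, and *NR1D2*, a nuclear receptor of the clock, had 149, 101, 137 and 84.2 CPM in the larvae, against 21, 12.9 and 8.6 CPM in the embryos. The 3 that fell were *bmal2* and both identifiers of *CLOCK*, activators of the clock, while both identifiers of the activator *BMAL1* were higher. *bmal2* had 7.23, 6.03, 5.62 and 8.19 CPM in the larvae, against 35.4, 36.6 and 39.5 CPM in the embryos. *CLOCK* ENSDARG00000011703 was at 0.897 to 2.32 CPM in the larvae against 6.7 to 12.2 CPM in the embryos; the fall of ENSDARG00000003631 was not called without embryo replicate 2 or 3 or larval replicate 1, 2 or 4. The sources used here do not give the time of day at sampling.

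Cytochrome P450 genes of families 1 to 4 were higher in 26 of 46 and lower in 11. *cyp2ad3* had 64, 55.7, 93.6 and 48.2 CPM in the larvae, against 1.79, 1.14 and 1.43 CPM in the embryos, and *cyp2aa9* fell, with 6.94, 8.33, 3.48 and 15.4 CPM in the larvae, against 130.0, 123 and 129 CPM in the embryos. *cyp3a65*, a drug-metabolising enzyme of gut and liver, had 8.27, 16, 55.3 and 20.3 CPM in the larvae, against 0.695, 2.17 and 0.716 CPM in the embryos, highest in larval replicate 3.

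**Figure D4:**
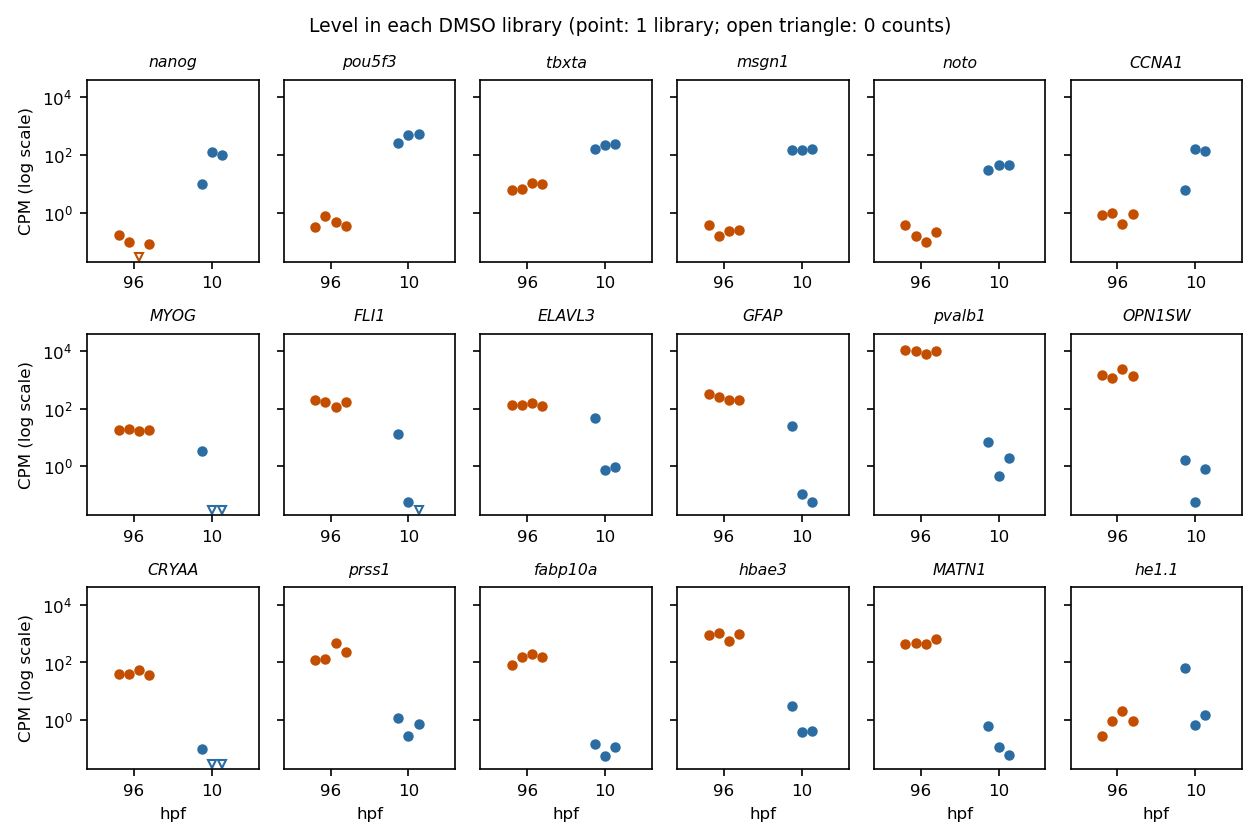
Level in CPM (log axis) of 18 genes in each DMSO library, larvae at 96 hpf (orange, left) and embryos at 10 hpf (blue, right) in the order of their replicates; open triangles are libraries with 0 counts. *nanog* to *CCNA1* are lower in all larvae, *pvalb1* to *MATN1* are higher, and for *MYOG*, *FLI1*, *ELAVL3*, *GFAP* and *he1.1* the first embryo library stands above the other 2.

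Within several gene families the members changed differently between the stages. Elongation factor 1 alpha, which brings aminoacyl-tRNA to the ribosome, was read from *eef1a1l1* at both stages, with 8731, 9919.5, 7579.6 and 10379.5 CPM in the larvae, against 17129, 21610.0 and 21914 CPM in the embryos. It fell by 1.14 on the log2 scale, while the other 3 rose: *EEF1A1* ENSDARG00000039502 had 45.4, 42.4, 62.1 and 46.1 CPM in the larvae, against 0, 0.0572 and 0 CPM in the embryos, *EEF1A1* ENSDARG00000069951 was at 9.62 to 15.1 CPM in the larvae against 0.0993 to 0.955 CPM in the embryos, and *eef1a2* was at 0.686 to 1.3 CPM in the larvae against 0 to 0.114 CPM in the embryos.

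Of the de novo DNA methyltransferases, 5 of 6 fell. *dnmt3bb.2* had 10.01, 7.73, 5.71 and 6.3 CPM in the larvae, against 390.5, 538 and 602 CPM in the embryos, and *dnmt3ba* had 52.6, 41.4, 31.6 and 25 CPM in the larvae, against 323, 346 and 377 CPM in the embryos. The 1 that rose was *DNMT3A* ENSDARG00000015566, with 31.4, 25.5, 27.1 and 26 CPM in the larvae, against 4.62, 2.23 and 3.1 CPM in the embryos, while *DNMT3A* ENSDARG00000005394 fell by 2.42 on the log2 scale. The cytoplasmic actins *actb1* and *actb2* passed in neither direction, with log2 fold changes of 0.40 ± 0.24 and 0.25 ± 0.22 (SE). The muscle actins examined rose, *ACTA1* ENSDARG00000055618 to 2899, 3913, 1764 and 2335 CPM in the larvae, against 9.58, 0.286 and 1.13 CPM in the embryos. They did not include *actc1b*, the most abundant gene of each larval library. *ACTA1* ENSDARG00000036371 passed less clearly (adjusted p = 0.0333, edgeR's quasi-likelihood test), with 77.1, 0 and 0.657 CPM in the embryos, and was not called against a 2-fold change.

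Among 8 alpha tubulins 5 rose, 2 fell and 1 did not pass. *tuba1c* had 816, 771, 581 and 576 CPM in the larvae, against 32.1, 11.7 and 13.7 CPM in the embryos, and *tuba8l4* fell, with 724, 812, 490.4 and 823 CPM in the larvae, against 2113, 2023 and 2356 CPM in the embryos. *tuba8l2* was at 169 to 262 CPM in the larvae against 100.1 to 204 CPM in the embryos and did not pass (adjusted p = 0.0547). The 9 parvalbumins all rose, with log2 fold changes of 1.59 for *pvalb9* to 11.63 for pvalb1, and pvalb9 lost its call when any 1 library other than embryo replicate 1 and larval replicate 3 was left out.

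Keratins of the early epithelium divided too. *krt18a.1* and *krt8* fell, with 230.3, 257, 210.5 and 372 CPM in the larvae, against 3303, 3886 and 3658 CPM in the embryos for krt18a.1. *krt4* rose, with 12522, 13839.9, 9568 and 10414 CPM in the larvae, against 5510.0, 3942 and 4274 CPM in the embryos, and *krt91* rose by 6.77 on the log2 scale. *krt5* had a log2 fold change of -0.06 ± 0.20 (SE, adjusted p = 0.807), whose sign turned with the libraries used, and *krt17* one of -0.8 that did not pass.

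**Figure D5:**
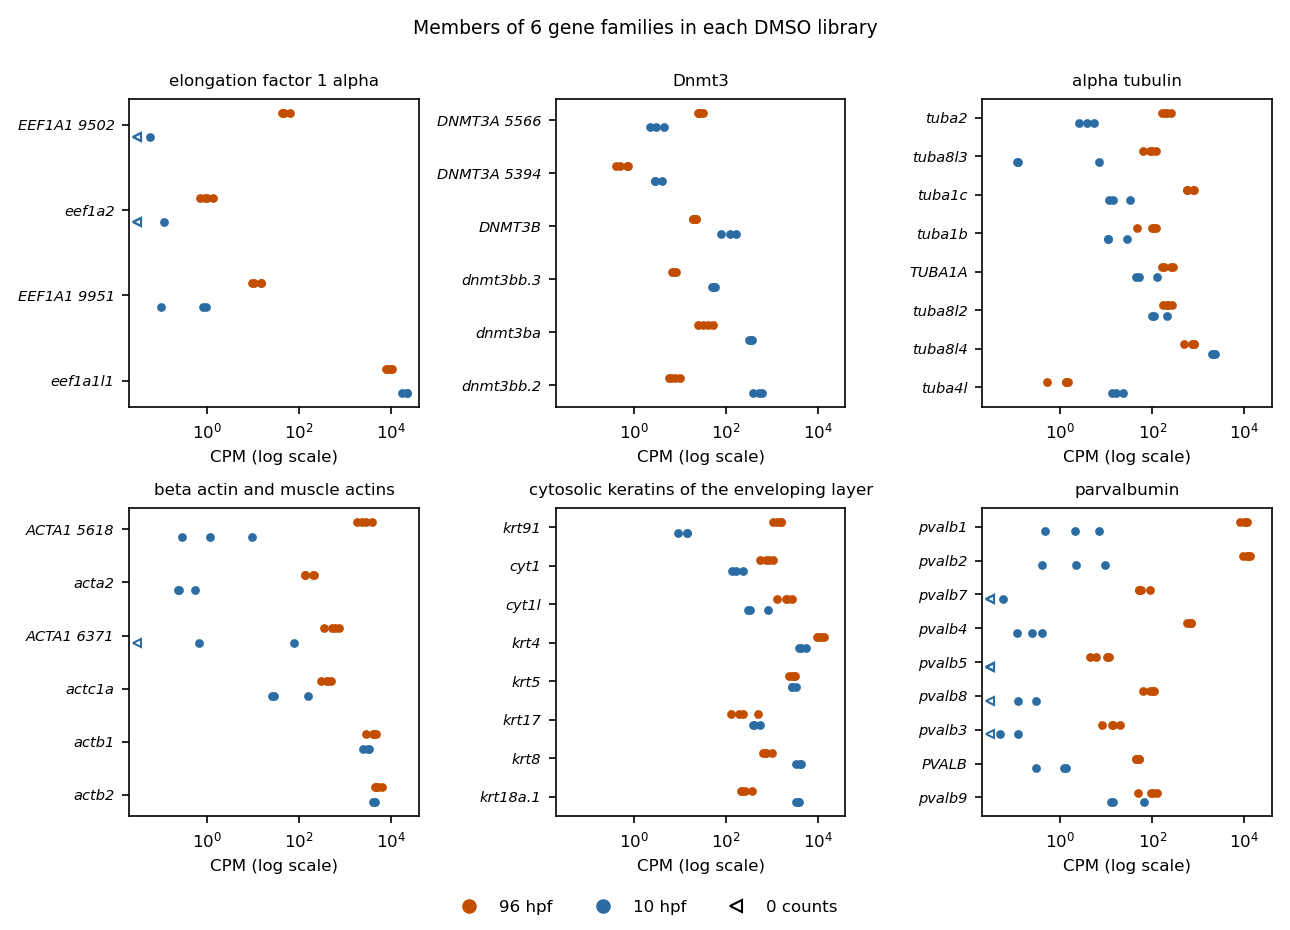
Level in CPM (log axis) of the members examined of 6 gene families in the 4 DMSO larval libraries (96 hpf, orange, upper row of each gene) and the 3 DMSO embryo libraries (10 hpf, blue, lower row). Open triangles are 0 counts, and digits after a symbol are the last 4 of its identifier. Members are ordered by fold change; in 5 of the 6 families some members were higher and others lower or close to level, while all parvalbumins were higher.

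Transcripts of larval organs were not wholly absent from the embryo libraries. Among muscle genes with at least 100 CPM in the larvae, 35 in all, the median level in embryo replicates 1, 2 and 3 was 0.183%, 0.0258% and 0.0486% of the larval mean. For 17 phototransduction genes these medians were 0.298%, 0.0491% and 0.103%, and for 19 lens genes 0.0931%, 0.0101% and 0.0305%. Embryo replicate 1 was highest and replicate 2 lowest for each of the 3 tissues, and all 17 phototransduction genes had a count in replicates 1 and 3. Whether these counts came from the embryos or from elsewhere was not tested.

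The same stages were also read in animals treated with THC and with CBD, whose libraries share none with the comparison above. In a fit over all 6 groups and 23028 genes, 17677 genes were called in DMSO (42.6% higher and 34.1% lower). Of these, 99.9% had the same sign between larvae and embryos in THC and 99.3% in CBD, where 44.9% and 42.9% of all genes tested were called higher and 34.9% and 35.1% lower. The test of a stage change that differs from the one in DMSO called 0 genes (0.0%) for THC and 0 (0.0%) for CBD in edgeR's quasi-likelihood test, with 518 and 1585 genes at an unadjusted p under 0.05. With DESeq2's size factors it also called 0 for each, with 537 and 1888 genes at that p.

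Lists from both ends of the range were examined in those animals. Early pluripotency factors were lower in 13 of 13 tested members in THC and in CBD, with median log2 fold changes of -6.56 and -6.48, and skeletal muscle genes were higher in 50 of 50 in each, with medians of 8.94 and 9.11. The ribosomal proteins' median log2 fold change was 0.77 in THC, -0.83 in CBD and 0.74 in DMSO. In CBD 37 of 81 were lower and 1 higher, or 22 lower and 1 higher with DESeq2's size factors. Without CBD embryo replicate 3, a library with 20212 genes with a count and 2.78% mitochondrial counts, the CBD median was 0.19, with 1 lower and 3 higher. The DMSO calls in that fit were 73 higher and 1 lower. Ribosomal proteins were not alone in this. Respiratory chain genes were higher in 51 of 90 in CBD, against 83 in DMSO, and proteasome subunits lower in 37 of 43, against 16. Without CBD embryo replicate 3 these counts were 81 against 87, and 37 against 28. The interaction test that called 0 genes therefore does not show equal changes.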

How the data were processed

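RNA of whole zebrafish was purified with RNeasy kits, treated with DNase, made into TruSeq libraries and read as pairs of 100 bp on a HiSeq instrument, per the labels' protocols. The deposited values are raw, unnormalized counts of 35117 Ensembl genes in each library. Per the submitters' processing notes, the authors used STAR, HTSeq and edgeR with the build GRCz11; the sources used here give no versions. The files' own names say that HTSeq counted in union mode with the reverse strand. A name table gave symbols to 27000 of the 35117 genes; many are in the human style, and 4682 identifiers share one. Some items are not reported here. Where genes have near-identical copies, as in large families, the counting may split or lose their reads; this was not measured. No gene annotation or sequence was used, so levels are compared between libraries and not between genes.

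Genes were filtered with filterByExpr (minimum count 10, total 15), TMM-scaled and tested by quasi-likelihood in edgeR 4.0.16 (R 4.3.3), 4 libraries against 3 with no covariate, Benjamini-Hochberg adjusted over all genes at a threshold of 0.05; glmTreat tested a fold above 2. Each SE is the size of the fold change over the root of F. The fit was tested on simulated counts of this comparison (21129 genes): it called 8% of 100 genes changed 2-fold and 67% of 100 changed 4-fold, with 5 false calls. Only 200 genes changed in these counts, whereas 79.7% of genes were called in the data. The adjustment was therefore stricter in the simulation, and its shares do not give the sensitivity of the comparison itself. Principal components used log2 CPM with a prior count of 2, and the comparison of embryo replicates added 0.5 CPM. Bounds use a floor of 3 counts over a group. All replicate pairs differed by more than counting noise.

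The members, lists and tests were chosen with earlier results of these data known. The name dld was taken out of its list after the values were seen, because the table gives that symbol to another gene. Genes were named by rule. The first were the 10 largest rises and falls among called genes with a gene name, not a clone's. These needed a mean of at least 10 CPM in the higher group, at least 30 counts over the lower group and no overlap. Further came the 3 most abundant called members of each list per direction and every member of 10 chosen sets of family genes. The sets need not hold whole families. The 5 most abundant genes at 0 in the other group and 15 fixed genes completed the named genes. Stage markers were fixed apart. Alternatives were DESeq2 1.42.0 (size factors in edgeR, and its Wald test), library size only, upper quartile scaling, filtering at 1 CPM in 3 libraries or not at all, the fourth embryo library included, 6 groups in 1 fit, the replicate number as a block, and leaving out each library.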

Additional observations from a re-analysis of the deposited data

Results flagged for a closer look

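The highest or lowest of 4 larval libraries stood apart from the other 3 (by Dixon's test of the gap over the range) in 10 of 316 values examined, where chance gives about 1 in 20. Replicate 4 was high for *COL2A1* ENSDARG00000069093 (3542 CPM, the others 2630 to 2782), *MATN1* (666.5 CPM, the others 424 to 455), the summed cartilage and bone factors (2708 CPM, the others 2240 to 2291), *chrd* (11.21 CPM, the others 6.93 to 7.24) and *GART* (36.16 CPM, the others 16.4 to 19.7). Replicate 3 was high for *ela2*, an elastase of the pancreas (166.7 CPM, the others 18 to 26) and *pvalb7* (88.69 CPM, the others 50.9 to 56.3). It was low for *tuba4l* (0.5108 CPM, the others 1.33 to 1.43) and for the share of counts in the 10 most abundant genes (10.41%, the others 11.4% to 11.6%). Replicate 1 was low for *ins* (11.62 CPM, the others 20.8 to 22.3).

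The embryo library left out, DMSO replicate 4 of 10 hpf, held 200 counts of skeletal muscle genes among 125926, where 0 would have allowed up to 3. That is 1588 CPM without scaling, against 100.4 to 471 CPM in the 3 embryo libraries used. It also held 65 counts of phototransduction genes, 29 of lens genes and 0 of exocrine pancreas genes.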

How the results depend on the processing

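The calls were counted again under 17 other settings. Genes higher and lower in the larvae numbered 9039 to 10652 and 7226 to 7820 with 1 library left out, most without embryo replicate 1, and 9053 and 6333 with the fourth embryo library included. With a fold above 2 as the null 5023 were lower. Scaling by DESeq2's size factors, library size or the upper quartile gave 9554 to 9645 higher and 7330 to 7632 lower. It turned no list's median in the fit of the 2 stages. In the fit over 6 groups, DESeq2's size factors turned the DMSO median of Hedgehog genes from -0.183 to 0.054. All these scalings are relative to the rest of a library. All but library size assume that changes are few or balanced, whereas 79.7% of genes were called. Their agreement therefore cannot decide small shifts. No filter gave 10687 and 8284 of 29284. Same-numbered libraries correlated by -0.044 to -0.024 in their deviations, and differently numbered ones by -0.0471 to 0.0481. With so few libraries these values cannot decide whether the replicate numbers pair the samples. With the replicate block 9026 were higher and 6834 lower. The median of the 8 hatching gland genes (-2.18) turned to 0.843 with the fourth embryo library and 0.523 without embryo replicate 1, and was -0.334 without larval replicate 4, -0.306 with no filter, -0.368 with the filter of 1 CPM and -0.894 with the replicate block. The median of Hedgehog genes turned to 0.228 without embryo replicate 1, and the log2 fold change of *krt5* to 0.056, 0.0771 and 0.0397 with the fourth embryo library, without embryo replicate 1 and without larval replicate 3; with the other single libraries left out, these went as low as -2.21, -0.467 and -0.136. The causes were not tested. Without CBD embryo replicate 3 the THC interaction called 1 gene. Of 277 called genes named, 27 lost their call when some library was left out.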

Other observations

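Larval replicates 1 and 2 differed from replicates 3 and 4 by more than 2-fold in 567 of 21546 genes (2.63%), and the third principal component, with 1.46% of the variance, placed them at -39.8 and -34.5 against 28.1 and 43.9. Whether this follows a batch was not tested, since the labels give none.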
